A study of Mus musculus with 40 samples.

Results

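The chemokines described here are 10 genes, Ccl2, Ccl6, Ccl7, Ccl8, Ccl9, Ccl11, Cx3cl1, Cxcl1, Cxcl12 and Cxcl14, out of 16593 genes named on an expression array that was run on 40 mouse hearts. They were chosen by name, with the earlier result in view that Ccl7 and Cxcl14 were higher in the hearts of offspring fed a high fat diet after weaning, and every probe annotated to a member was kept. The 10 genes had 16 of the 25697 probes, and 12 of these probes, from 9 genes, were brighter than the median of their array in at least 20 of the 40 hearts and so entered the tests, as did 12645 probes in all.

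The study asked whether what a mother eats affects her adult offspring, and compared it with what the offspring eat themselves. Female C57BL/6J mice received a low fat, high carbohydrate (LF) or a high fat, low carbohydrate (HF) diet with coconut oil as the main fat before mating, through pregnancy and during lactation, and at weaning the males of each cage were divided between the same diets. The hearts came from 10 male C57BL/6J offspring per group, 1 array per animal, named by the diet of the dam and then that of the offspring, namely LF_LF, LF_HF, HF_LF and HF_HF. Animals born to LF-fed or HF-fed mothers are called LF-dam and HF-dam offspring. All groups shared the strain, the sex, the killing as adults and the fast before it, and no group carried a transgene or a drug. Only some cages gave hearts to both diets, and averaging the hearts of a cage within each group left 17 values in all. Animals of 1 cage are not independent, and the p-values measure the spread between animals.

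Chemokines are small secreted proteins that direct the movement of cells by binding receptors on their surface. The family is named after the spacing of its conserved cysteines. The CC members attract mainly monocytes, eosinophils and lymphocytes, several CXC members attract neutrophils, Cxcl12 retains and guides progenitor cells, and Cx3cl1 is tethered to the membrane until a protease releases it. In the heart, resident macrophages, fibroblasts and endothelial cells are known sources.

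Promoter sequence was at hand for 7 of the 10 members (RefSeq, build GRCm38.p6, from 250 bases before the start site to 50 bases from it on). The windows of Ccl6 and Ccl9 are shown because the levels of these neighbouring genes of chromosome 11 went together from heart to heart, that of Cxcl1 for its match to the NF-kB consensus, and that of Cxcl14 because its level followed the diet of the offspring. Capitals mark the best local alignment between Ccl6 and Ccl9, the NF-kB match in Cxcl1, and each CG dinucleotide in Cxcl14. All are written 5′ to 3′ on the strand of the gene, which is the minus strand of chr11:83593038-83593337 for Ccl6, of chr11:83578587-83578886 for Ccl9 and of chr13:56296502-56296801 for Cxcl14, and the plus strand of chr5:90890995-90891294 for Cxcl1.
Ccl6: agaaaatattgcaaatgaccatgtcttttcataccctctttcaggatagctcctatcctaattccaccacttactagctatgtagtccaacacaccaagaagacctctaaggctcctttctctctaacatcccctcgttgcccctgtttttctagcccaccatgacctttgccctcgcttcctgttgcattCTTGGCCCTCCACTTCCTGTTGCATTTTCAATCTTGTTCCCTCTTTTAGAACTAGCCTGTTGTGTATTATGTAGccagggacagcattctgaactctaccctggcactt
Ccl9: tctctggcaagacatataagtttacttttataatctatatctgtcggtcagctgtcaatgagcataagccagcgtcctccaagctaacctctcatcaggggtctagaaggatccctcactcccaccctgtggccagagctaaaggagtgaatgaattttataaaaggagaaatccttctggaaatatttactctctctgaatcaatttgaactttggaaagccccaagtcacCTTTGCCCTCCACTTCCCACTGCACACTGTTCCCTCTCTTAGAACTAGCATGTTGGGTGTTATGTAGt
Cxcl1: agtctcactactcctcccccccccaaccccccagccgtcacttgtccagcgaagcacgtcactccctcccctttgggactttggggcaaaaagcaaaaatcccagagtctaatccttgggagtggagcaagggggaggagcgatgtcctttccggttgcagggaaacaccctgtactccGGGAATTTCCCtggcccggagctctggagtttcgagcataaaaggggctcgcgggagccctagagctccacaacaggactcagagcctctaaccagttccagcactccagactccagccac
Cxcl14: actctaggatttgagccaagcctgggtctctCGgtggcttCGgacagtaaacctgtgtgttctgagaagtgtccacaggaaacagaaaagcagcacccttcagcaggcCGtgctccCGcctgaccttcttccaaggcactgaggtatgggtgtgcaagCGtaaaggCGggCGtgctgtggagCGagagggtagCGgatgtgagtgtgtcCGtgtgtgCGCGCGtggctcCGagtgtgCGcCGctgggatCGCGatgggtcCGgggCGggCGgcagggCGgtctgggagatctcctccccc

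The aligned stretch of Ccl6 and Ccl9 covered 74 positions, of which 59 were identical (79.7%). It ran from 59 bases before the start site of Ccl6 to 15 after it, and from 18 before that of Ccl9 to 49 after it. The next best alignment among the members, between Ccl6 and Ccl8, had 21 identical bases in 29 positions. The NF-kB consensus was searched on both strands and had overlapping matches in Cxcl1, 71 and 70 bases upstream of the start site, and 1 match in Ccl9, 35 bases upstream. It was present in 8.46% of 32851 promoter windows of the same length. The AP-1 motif TGANTCA, in 7.81% of the windows, was matched only in Ccl9 among the 7 members, 53 bases upstream. Such a match is a description of the letters, not a bound site. The Cxcl14 window held 22 CG dinucleotides, that of Cxcl12 20, Cx3cl1 19, Cxcl1 10, and Ccl6, Ccl8 and Ccl9 held 2 each, and the median of all windows was 7 with quartiles of 3 and 20.

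The label of the tissue was checked first. Summed over 1 probe per gene, the 8 cardiomyocyte genes on the array lay between 107561 and 132583 units in every heart. Atrial genes were uneven, with sums from 2839 to 86005 units. The sum was below 10000 units in 6 LF_LF, 4 LF_HF, 2 HF_LF and 2 HF_HF hearts. In 10 hearts the genes of another tissue (liver, exocrine pancreas or skeletal muscle) stood more than 1.5 log2 units above the median heart, 2 or 3 in each group, and in 5 hearts white adipocyte genes stood more than 1 log2 unit above it. The labels name no batch, but the probes too dim to be tested split the arrays into sets of 25 and 15 hearts, called batch 1 and batch 2 here, each with hearts of all 4 groups. Results that moved without these hearts or within a batch are given with their values.

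The levels are intensities on the scale of the array, whose median was 79.3 units, and because probes differ in how brightly they bind, each is stated against that median and not against another probe. The brightest probe of Cxcl12, the ligand of Cxcr4 and Ackr3, had a median of 2370.1 units over the 40 hearts, 29.9-fold the array median. Its other tested probes stood at 4.52-fold and 1.91-fold, and another 2 were above the array median in 0 of 40 hearts. Ccl9, a ligand of Ccr1 made by macrophages, had a median of 523 units, 6.59-fold the array median. The probes of Cxcl14, a chemokine of epithelia and fat whose receptor is not settled, stood at 2.22-fold and 1.26-fold. Ccl11 (eotaxin, which attracts eosinophils through Ccr3), Ccl7 (a monocyte attractant that binds Ccr2), Cxcl1 (a neutrophil attractant that binds Cxcr2), Ccl6 (a rodent chemokine that binds Ccr1), Cx3cl1 (fractalkine) and Ccl8 (which in mice binds Ccr8) had medians between 1.30-fold and 1.79-fold. The probe of Ccl2, the best known monocyte attractant, had a median of 73.3 units, 0.924-fold the array median, and was above it in 8 of 40 hearts, so that Ccl2 entered no test. The second probe of Ccl11 was above it in 18 of 40 hearts and was likewise left out.

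**Figure D1:**
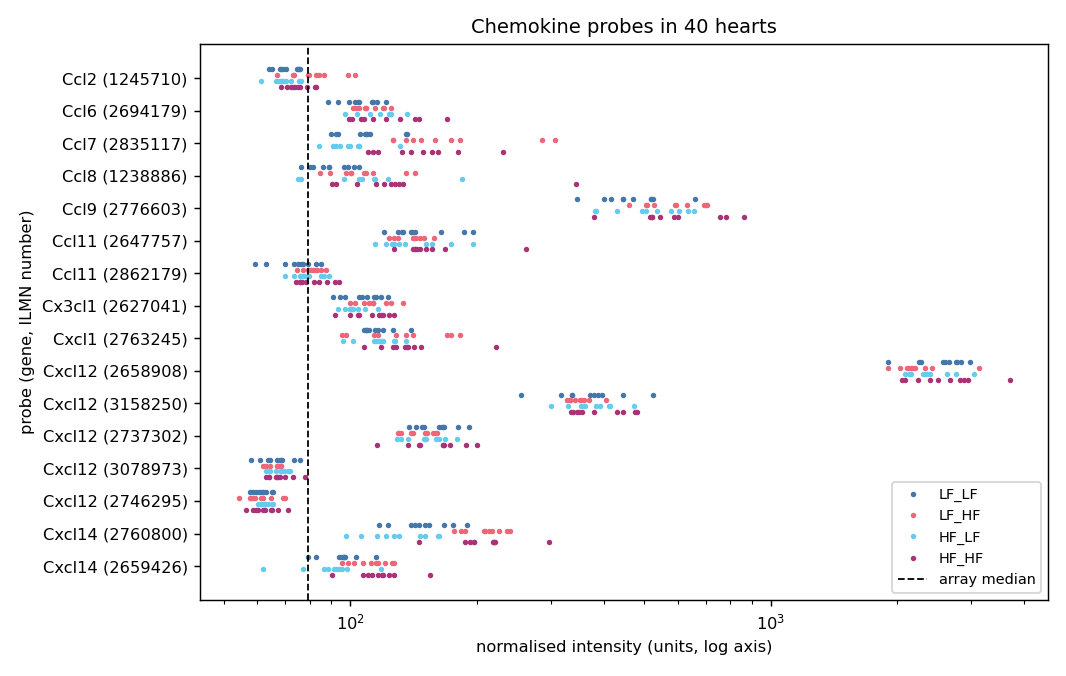
Normalised intensity (log axis, units of the array scale) of the 16 chemokine probes, 1 point per heart, coloured by diet group (10 hearts each); the dashed line is the array median of 79.3 units. The points of Ccl2, the second Ccl11 probe and 2 of the Cxcl12 probes lie mostly around or below that line, while the brightest Cxcl12 probe does not fall below 1895 units in any heart.

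The CC chemokine Ccl7 was higher in offspring fed the HF diet, whichever diet the dam had eaten. In LF-dam offspring it ranged from 89.9 to 136 units with a median of 108 in LF_LF hearts, and from 126 to 307 units with a median of 153 in LF_HF hearts. In HF-dam offspring it ranged from 84.0 to 131 units with a median of 99.0 in HF_LF hearts, and from 110.0 to 230.1 units with a median of 144 in HF_HF hearts. All 20 HF-fed hearts lay above the median of the 20 LF-fed hearts, 13 of them above the highest LF-fed heart, so the groups overlapped in a band between 110.0 and 136 units. The log2 difference was 0.65 (1.57-fold, 95% interval 0.35 to 0.96, n = 10 per group) in LF-dam offspring and 0.54 (1.46-fold, 0.32 to 0.77) in HF-dam offspring. Because this contrast was part of how the members were chosen, the post-weaning values of all 10 genes are a description, with intervals but no p-values, and nothing is drawn from them.

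Cxcl14 followed the same contrast at its brighter probe. In LF-dam offspring this probe ranged from 117 to 189 units with a median of 148 in LF_LF hearts, and from 176 to 239 units with a median of 211 in LF_HF hearts. In HF-dam offspring it ranged from 97.8 to 163 units with a median of 128 in HF_LF hearts, and from 145 to 297 units with a median of 207 in HF_HF hearts. All 20 HF-fed hearts were above the LF-fed median and 15 of them above the highest LF-fed heart. The log2 difference was 0.49 (1.40-fold, 0.32 to 0.65) in LF-dam offspring and 0.67 (1.59-fold, 0.45 to 0.89) in HF-dam offspring. The dimmer probe differed by 0.23 (1.17-fold) and 0.39 (1.31-fold), with 8 of 20 HF-fed hearts above the highest LF-fed heart. Over the 40 hearts with group means removed, the probes of Cxcl14 had r = 0.80 (a description, as they measure 1 transcript in the same hearts).

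**Figure D2:**
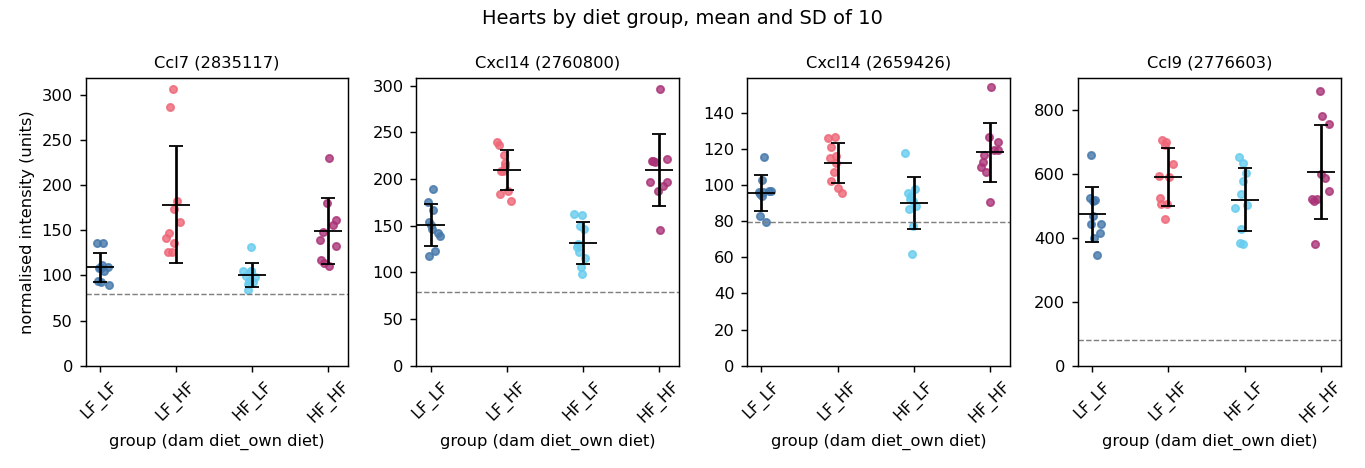
Normalised intensity (units, axes from 0) of Ccl7, both Cxcl14 probes and Ccl9 in each heart, by group (diet of the dam, then own diet); the long line is the mean and the bars the SD of 10 hearts, and the dashed line is the array median. The HF-fed groups lie higher than the LF-fed groups for Ccl7 and the brighter Cxcl14 probe, and 2 LF_HF hearts reach 286 and 307 units for Ccl7.

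Among the other CC members, Ccl9 ranged from 346 to 659 units (median 457) in LF_LF hearts and from 459 to 706 units (median 594) in LF_HF hearts. In HF-dam offspring it ranged from 382 to 655 units (median 520.05) in HF_LF hearts and from 380 to 861 units (median 566) in HF_HF hearts. Here 18 of 20 HF-fed hearts were above the LF-fed median but only 6 above the highest LF-fed heart, and the log2 differences were 0.33 (1.25-fold, 0.12 to 0.53) and 0.21 (1.16-fold, −0.06 to 0.48). Ccl8 differed by 0.25 (0.07 to 0.42) and 0.31 (−0.09 to 0.70). Its HF_HF hearts spread from 90.5 to 344 units around a median of 123, and the highest value belonged to animal 52, with the next at 133. Ccl6 differed by 0.08 and 0.05 and Ccl11 by −0.07 and 0.13, each with an interval that included 0. Ccl2, below the limit for testing, had medians of 69.7 units in LF_LF and 81.2 in LF_HF hearts, and of 69.1 in HF_LF and 74.5 in HF_HF hearts. Although most of these values were under the array median, 10 of 20 HF-fed hearts were above the highest LF-fed heart of 76.3 units. In a fit on all 25697 probes Ccl2 differed by 0.22 (0.09 to 0.35) and 0.12 (0.03 to 0.20).

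The remaining members were the neutrophil attractant Cxcl1, the membrane-bound Cx3cl1 and Cxcl12. Cxcl1 had medians of 113 units in LF_LF and 132 in LF_HF hearts, and of 117 in HF_LF and 136 in HF_HF hearts, with log2 differences of 0.19 (−0.03 to 0.41) and 0.24 (0.05 to 0.43). Cx3cl1 differed by 0.09 (−0.04 to 0.21) and 0.13 (0.01 to 0.24). The diet groups overlapped over most of their range for both genes. The brightest Cxcl12 probe had medians of 2620.25 units in LF_LF and 2161.6 in LF_HF hearts, and of 2340.9 in HF_LF and 2576.6 in HF_HF hearts. It was lower by 0.18 (−0.35 to −0.01) with the HF diet in LF-dam offspring and higher by 0.11 (−0.08 to 0.30) in HF-dam offspring. The other tested probes of Cxcl12 differed by −0.15 and −0.07 in the first comparison and by 0.07 and 0.06 in the second. Removing group means, the brightest probe of Cxcl12 had r = 0.03 and 0.42 with these, in the same order, so that the probes of this gene did not vary as 1. The tested probes of Cxcl12 are annotated to different RefSeq transcripts.

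In counts, 2 of the 12 member probes (Ccl7 and the brighter probe of Cxcl14) were past an adjusted p of 0.05 in LF-dam offspring, where 2.72% of all tested probes were. In HF-dam offspring 3 were (Ccl7 and both probes of Cxcl14), beside 0.862% of all probes. In the fit that averaged over the maternal diet 4 were, with Ccl9 added, beside 7.49% of all probes. The median log2 difference of the 12 probes was 0.14 in LF-dam offspring and 0.17 in HF-dam offspring, with 8 and 12 of 12 above 0, and the median of all tested probes was -0.002 and -0.0003. These counts and medians rest on the contrast by which the members were chosen and support nothing. In fits that left out 1 animal, Ccl9 was past the threshold in 18 of 40 averaged fits and the dimmer Cxcl14 probe in 8 of 20 fits of HF-dam offspring.

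The differences of Ccl7 and the brighter Cxcl14 probe had the same direction in subsets of the hearts but varied in size. The subsets are parts of the values used in the choice of the members, and their differences are a description. Averaged over the maternal diet, Ccl7 differed by 0.60 in batch 1 and 0.58 in batch 2, and the brighter Cxcl14 probe by 0.55 and 0.58. Without the 10 hearts that carried another tissue, Ccl7 differed by 0.55 and 0.66 and Cxcl14 by 0.41 and 0.75 in LF-dam and HF-dam offspring. The hearts with atrial sums above and below 10000 units gave Ccl7 differences of 0.55 and 0.84 in LF-dam offspring and of 0.48 and 0.80 in HF-dam offspring, the last from 2 against 2 hearts. In the same order the Cxcl14 differences were 0.52 and 0.52, and 0.72 and 0.45. With the atrial score as a term in the fit, the differences were 0.66 and 0.55 for Ccl7 and 0.49 and 0.66 for Cxcl14. Leaving out animal 207, the highest LF_HF heart, lowered the Ccl7 difference to 0.56, and leaving out animal 52, the highest HF_HF heart, lowered it to 0.47.

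In 5 cages hearts of both diets were at hand, which allowed a comparison within a cage. Ccl7 was higher in the HF-fed animals of all 5 cages, by 0.26 and 0.95 on the log2 scale in cages of LF-fed dams and by 0.97, 0.46 and 0.33 in cages of HF-fed dams, and in 4 of them the diets did not overlap. The brighter Cxcl14 probe was higher by 0.58 and 0.41, and by 0.88, 0.88 and 0.53, likewise without overlap in 4 cages. Ccl9 was higher in 4 of the 5 cages, with differences from −0.10 to 0.55. Ccl2 was higher in all 5, by 0.10 to 0.37, without overlap in 4. The cages held 1 to 3 animals per diet, so that a lack of overlap can easily arise by chance. Its share among all probes was not counted, and no test was made. The cages hold the same hearts and contrast by which the members were chosen, so these values are a description and support nothing.

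The cells that answer to these chemokines were examined through their marker genes. The summed level of neutrophil genes had a median of 760 units in LF_LF (681 to 1601), 1039 in LF_HF (735 to 1511), 796 in HF_LF (695 to 1328) and 882 in HF_HF hearts (742 to 2024). Of the 9 listed neutrophil genes 4 were bright enough to be tested. Of these, 0 of 4 passed in either post-weaning comparison, beside 2.72% and 0.862% of all tested probes. The median log2 differences of the 4 were 0.38 and 0.17. The summed macrophage genes had medians of 12587, 11538, 13357 and 12557 units in the same order. Of 19 macrophage genes tested, the scavenger receptor Cd163 fell by 0.49 with the HF diet in HF-dam offspring (limma, adjusted p = 0.0115), where 0.862% of all tested probes passed. The part of these cells in the chemokine values was not tested, and in whole hearts a change in the number of cells cannot be told apart from a change in the RNA of each cell.

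The diet of the dam, which had no part in the choice of the members, moved none of them past the threshold. In LF-fed offspring 0 of 12 member probes passed, beside 0.0395% of all tested probes, and 508 of the 12645 probes had an unadjusted p under 0.05. In HF-fed offspring 0 of 12 passed, beside 0% of all probes (1429 with an unadjusted p under 0.05). In the fit averaged over the offspring diet 0 of 12 passed, beside 0.388% of all probes. The CC chemokine Ccl6 had the smallest unadjusted p of the members in LF-fed offspring and in the averaged fit. It ranged from 88.2 to 121 units (median 104) in LF_LF and from 96.9 to 136 units (median 124) in HF_LF hearts, and 6 of 10 HF_LF hearts were above the highest LF_LF heart. Its log2 difference was 0.17 (1.13-fold, 0.04 to 0.30) with an unadjusted p of 0.0134 and an adjusted p of 0.996 by limma. In HF-fed offspring it was 0.13 (−0.04 to 0.30, adjusted p = 0.564), and averaged 0.15 (0.04 to 0.26, adjusted p = 0.255).

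Ccl8 was higher by 0.20 (−0.06 to 0.46) in LF-fed and by 0.26 (−0.09 to 0.61) in HF-fed offspring when the dam was HF-fed, with an averaged adjusted p of 0.483 by limma. Its HF_LF hearts spread from 75.1 to 185 units, against 76.2 to 105 in LF_LF hearts, and covered the whole LF_LF range. The atrial genes differed in the same direction, with medians of 6826 units in LF_LF and 66649 in HF_LF hearts, and of 18663 in LF_HF and 42326 in HF_HF hearts. With the atrial score as a term, the averaged difference of Ccl8 was 0.11 in place of 0.23, and that of Ccl6 0.12 in place of 0.15. Ccl7 was lower with an HF-fed dam by 0.11 (−0.28 to 0.05) and 0.22 (−0.56 to 0.11), and the brighter Cxcl14 probe by 0.19 (−0.40 to 0.01) and 0.02 (−0.20 to 0.17). The dimmer Cxcl14 probe was lower by 0.09 in LF-fed and higher by 0.07 in HF-fed offspring. The brightest probe of Cxcl12 was lower by 0.08 (−0.25 to 0.08) in LF-fed offspring and higher by 0.21 (0.01 to 0.41, adjusted p = 0.405) in HF-fed offspring. For the remaining tested probes every interval of the maternal difference lay within 0.41 of 0 on the log2 scale.

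**Figure D3:**
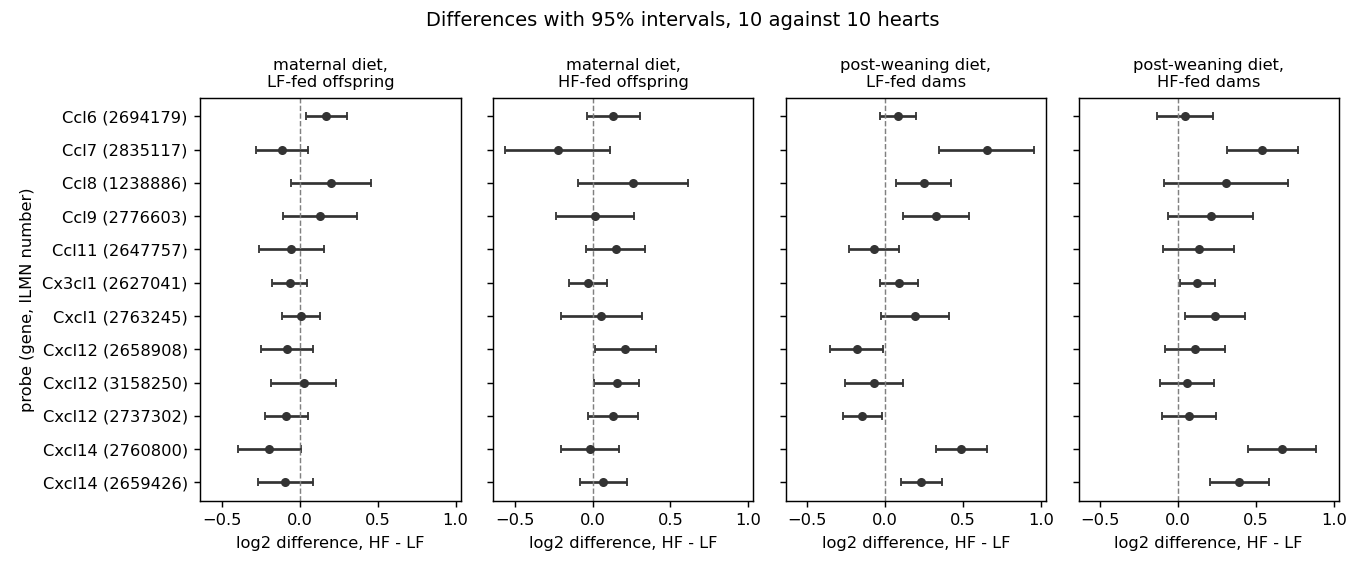
Log2 differences between HF and LF for the 12 tested chemokine probes, with 95% intervals, 10 against 10 hearts; the left panels compare dams and the right panels the diets of the offspring. Only Ccl7, both Cxcl14 probes and, in 1 panel each, Ccl8, Ccl9, Cx3cl1 and Cxcl1 have intervals above 0 in the right panels, and the 2 diets of the dam differ by less than 0.3 on the log2 scale for every probe.

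The interaction asked whether the effect of the offspring diet depended on the dam. It passed for 0 of 12 member probes and for 0% of all tested probes (431 with an unadjusted p under 0.05). The brightest probe of Cxcl12 had the largest term, 0.29 (0.03 to 0.55, adjusted p = 0.943 by limma), and another of its probes 0.22 (adjusted p = 0.943). For Ccl7 it was −0.11 (−0.49 to 0.27) and for the brighter Cxcl14 probe 0.18 (−0.10 to 0.45).

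The members were next compared with the rest of the chemokine system. Of 30 other ligands on the array 13 were tested, with 17 probes, and 1 probe rose with the HF diet in LF-dam offspring, 0 in HF-dam offspring and 3 in the fit averaged over maternal diet, while 0 fell, beside 2.72%, 0.862% and 7.49% of all probes past the threshold in either direction. The 3 were both probes of Ccl12 and that of Cxcl9. The ligand that rose in LF-dam offspring was Ccl12, a mouse monocyte attractant that binds Ccr2 and lies with Ccl2, Ccl7, Ccl11 and Ccl8 in 1 row of neighbouring genes. Its brighter probe ranged from 106 to 158 units (median 139) in LF_LF and from 137 to 244 units (median 201) in LF_HF hearts, a log2 difference of 0.52 (1.44-fold, adjusted p = 0.0125 by limma). In HF_LF hearts it ranged from 91.8 to 176 units (median 131) and in HF_HF hearts from 136 to 270.0 units (median 182), a difference of 0.47 (1.38-fold, adjusted p = 0.104). Averaged, its probes rose by 0.49 (adjusted p = 0.000176) and 0.24 (adjusted p = 0.00245), and Cxcl9, an interferon-induced attractant of T cells, rose by 0.25 (adjusted p = 0.0418). The other ligands above the limit, among them Pf4 at 9.91-fold and Ccl21a at 6.22-fold the array median, did not pass in any comparison.

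Receptors were mostly dim. Of 24 listed, 23 were on the array and 6 were bright enough to be tested, namely Ackr2, Ackr3, Ackr4, Ccrl2, Cx3cr1 and Cxcr4, and 0 of their 7 probes passed in any comparison of the diets. Cxcr4, the signalling receptor of Cxcl12, had a median 1.42-fold and Cx3cr1, the receptor of fractalkine, 1.31-fold the array median. Cxcr4 differed by 0.17 (adjusted p = 0.170 by limma) with the HF diet in LF-dam offspring and by 0.01 in HF-dam offspring. The leukocyte receptors Ccr1, Ccr2, Ccr3 and Cxcr2, which bind Ccl6 and Ccl9, Ccl2 and Ccl7, Ccl11, and Cxcl1, were above the array median in 0 of 40 hearts. Of the inflammatory and NF-kB pathway genes 21 were tested with 26 probes, of which 2 passed in the averaged post-weaning fit, a share near the 7.49% of all probes. In the averaged post-weaning fit Csf1, the growth factor of macrophages, rose by 0.16 (adjusted p = 0.0160) and Nfkbia, the NF-kB inhibitor, fell by 0.21 (adjusted p = 0.0477). Of 5 chemokine-cleaving proteases tested 1 passed in the same fit, Adam17, which sheds Cx3cl1 and rose by 0.12 (adjusted p = 0.0284).

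From heart to heart, with group means removed, Ccl6 and Ccl9 went together most closely of the 36 pairs formed by the 9 tested genes (1 probe each). Their correlation was r = 0.75 and Spearman's rho = 0.72 over 40 hearts, with a permutation p of 1e-05, the smallest that 100000 permutations can give, and adjusted 0.00036. Without animals 181 and 183, farthest from the median, r was 0.68, and within the batches it was 0.66 and 0.90. Without the 10 hearts that carried another tissue it was 0.78 over 30 hearts, with a permutation p adjusted to 0.0018.

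Another 3 pairs passed by r. Ccl9 and Cxcl1 had r = 0.55 and rho = 0.53 (permutation, adjusted p = 0.00378 and 0.0103), with 0.28 and 0.79 within the batches and 0.48 without animals 52 and 201. Ccl7 and Ccl9 had r = 0.48 and rho = 0.47 (permutation, adjusted p = 0.0164 and 0.0389), with 0.62 and 0.37 within the batches. Ccl7 and Cxcl1 had r = 0.56 and rho = 0.36 (permutation, adjusted p = 0.0256 and 0.233), so that by rank this relation did not pass, and r was 0.35 without animals 52 and 201. Without the 10 hearts that carried another tissue none of these 3 passed by r, with permutation p adjusted to 0.0697, 0.0594 and 0.120 at r of 0.53, 0.53 and 0.56. By rank Ccl7 and Ccl9 still passed there (rho = 0.56, permutation, adjusted p = 0.0434). Ccl7 and Cxcl14, both higher with the HF diet, had r = 0.34 within groups (rho = 0.23, permutation, adjusted p = 0.108 and 0.323), with 0.02 and 0.59 within the batches and 0.16 without animals 52 and 124. Animal 52 of HF_HF was the highest of 40 hearts for 6 of the 12 tested probes and animal 183, of the same group, for 3.

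**Figure D4:**
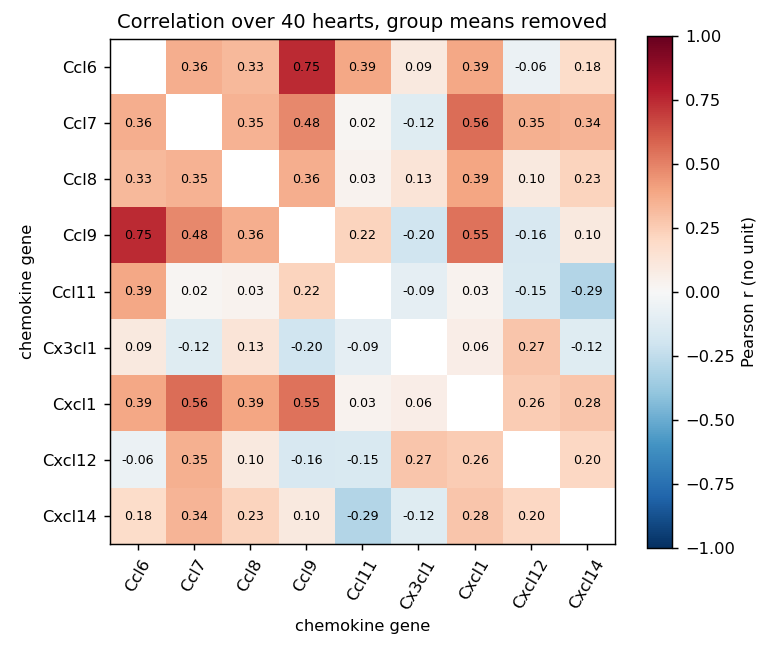
Pearson correlations between 9 chemokine genes over 40 hearts, group means removed, 1 probe per gene. Ccl6 with Ccl9 (0.75) is the darkest cell, Cxcl1 reaches 0.56 with Ccl7 and 0.55 with Ccl9, and Cx3cl1 and Cxcl14 stay between −0.29 and 0.34 with every other gene.

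Of 153 pairs of a member with a marker score, 18 passed by r and 23 by rho. A score is the mean log2 deviation of a list of marker genes. Ccl8 went with macrophage genes (r = 0.58, rho = 0.67, permutation, adjusted p = 0.00568 and 0.000765) and fibroblast genes (r = 0.51, rho = 0.67, permutation, adjusted p = 0.00568 and 0.000765). Within the batches r was 0.69 and 0.71 with macrophage genes and 0.66 and 0.43 with fibroblast genes. Ccl8 also passed with mesothelial genes (r = 0.48, rho = 0.65, within the batches 0.60 and 0.55) and with atrial genes, where r was 0.21 in the 14 hearts with sums below 10000 units and 0.30 in the other 26. By rho alone it passed with mast cell, white and brown adipocyte and skeletal muscle genes too. Ccl9 went with macrophage genes at r = 0.55 and rho = 0.50 (permutation, adjusted p = 0.0101 and 0.0296), with 0.67 and 0.45 within the batches, and with mesothelial genes at r = 0.51 and rho = 0.44, with 0.42 and 0.71 within the batches. Ccl6 went with macrophage genes at r = 0.51 (permutation, adjusted p = 0.0240), but its rho of 0.43 did not pass (adjusted 0.0620). Its r was 0.57 and 0.39 within the batches and 0.31 without animals 228 and 183.

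Cxcl1 went with neutrophil genes at r = 0.65 and rho = 0.46 (permutation, adjusted p = 0.00306 and 0.0411), with 0.52 and 0.83 within the batches and 0.57 without animals 52 and 134. Ccl7 also went with neutrophil genes, at r = 0.54 and rho = 0.53 (permutation, adjusted p = 0.0126 and 0.0224), with 0.37 and 0.80 within the batches. Ccl6 and Ccl9 passed with neutrophil genes by rho alone, at 0.47 and 0.44 (permutation, adjusted p = 0.0343 and 0.0465). Their r with these genes was 0.43 and 0.39 (permutation, adjusted p = 0.0644 and 0.119). Cxcl1 and immediate early genes had r = 0.54 (permutation, adjusted p = 0.0175), with 0.44 and 0.67 within the batches, but r was 0.26 without animals 97 and 52. Over the 30 hearts without another tissue this r was 0.72 (permutation, adjusted p = 0.00306). Leaving out the 10 hearts that carried another tissue, 9 pairs passed by r, among them Ccl8 with macrophage and fibroblast genes and Cxcl1 with neutrophil genes, whereas Ccl7 with neutrophil genes and Ccl6 and Ccl9 with macrophage genes did not, at r of 0.50, 0.52 and 0.52 (permutation, adjusted p = 0.0707 for each). Ccl8 with mesothelial and atrial genes and Ccl9 with mesothelial genes were also lost by r, at 0.52, 0.47 and 0.43 (permutation, adjusted p = 0.111, 0.0666 and 0.2115). By rho these pairs of Ccl8 passed (0.68 and 0.61, permutation, adjusted p = 0.00727 and 0.0135), and that of Ccl9 did not (0.44, permutation, adjusted p = 0.144).

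Ccl11 needs a separate account, because in 5 hearts white adipocyte genes stood above the limit of 1 log2 unit. The limit did not fall at a gap, with scores of 1.279 in LF_LF animal 134 and 0.999 in LF_LF animal 101. Their Ccl11 levels were 196 and 187 units in LF_LF, 174 and 196 in HF_LF and 262 in HF_HF hearts, against a median of 142 over all hearts. Within the other 35 hearts Ccl11 had r = 0.42 and rho = 0.31 with the adipocyte score (permutation, adjusted p = 0.147 and 0.327), over a range of the score that leaving out the 5 hearts had made narrower. Over all 40 hearts Ccl11 passed by r with white and brown adipocyte, mast cell, mesothelial, lymphocyte and macrophage genes, and in the 35 hearts with none of these, where r with the last 5 lay between −0.07 and 0.25. The brightest probe of Cxcl12, the only one of this gene used here, went against atrial genes over 40 hearts (r = −0.50, rho = −0.54, permutation, adjusted p = 0.0159 and 0.00969). With the hearts split at 10000 units of atrial genes, r was −0.38 within the 14 lower hearts and 0.08 within the 26 higher ones. The sums showed no clear gap at that limit, with 9495.4 units in LF_HF animal 23 and 14967.8 in LF_HF animal 99. The same probe also went against fibroblast genes (r = −0.45, rho = −0.50, permutation, adjusted p = 0.0294 and 0.0296). By rho alone it went against mesothelial (−0.51) and brown adipocyte genes (−0.43, permutation, adjusted p = 0.0296 and 0.0461). Over the 30 hearts without another tissue none of these relations of Cxcl12 passed by r or rho. There r was −0.43 with atrial and −0.44 with fibroblast genes (permutation, adjusted p = 0.1585 for each). Over the 35 hearts not rich in adipocyte genes r was −0.46 and −0.40 (permutation, adjusted p = 0.0719 and 0.133). By rho the atrial and mesothelial relations passed there (permutation, adjusted p = 0.0340 and 0.0214). No member passed with weight at 3 weeks, the later body weight or glucose in 27 pairs. The strongest was Ccl11 with weight at 3 weeks (r = 0.35, rho = 0.34, permutation p = 0.0387, adjusted 0.468, within the batches 0.33 and 0.44).

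**Figure D5:**
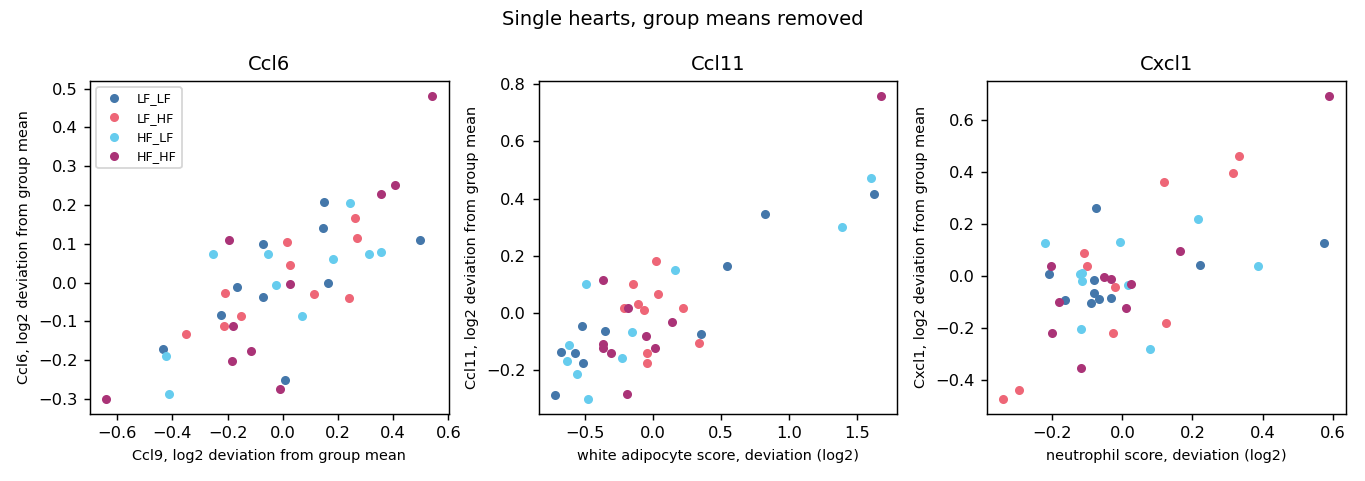
Single hearts with group means removed (log2 deviations on all axes), 10 hearts per group, for Ccl6 against Ccl9 (left), Ccl11 against the white adipocyte score (middle) and Cxcl1 against the neutrophil score (right). The left panel shows r = 0.75, in the middle panel the 5 hearts with high adipocyte genes lie farthest to the right, and in the right panel animal 52 is the highest point.

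The probes of other genes that varied most like each member, by r over the 40 hearts with group means removed, are given as a description, since all share the same arrays. For Ccl7 they were Ccl12 (0.69), Rassf4 (0.63), Tubb6 (0.63), Uck2 (0.58) and Lcp1 (0.57). For the brighter Cxcl14 probe they were Tuba8 (0.74), Rprd1a (0.74), Xirp1 (0.73), Mdh1 (0.71) and Ndufs4 (0.70), and Ndufs4 (0.63) was also among the 5 nearest to the dimmer probe, after Naca (0.65) and Elp5 (0.64). Ccl6 and Ccl9 were nearest to each other and both had the Fc receptor Fcgr2b among the nearest (0.63 and 0.69), with Wfdc17 (0.61) for Ccl6 and Ms4a6d (0.70) for Ccl9. Cxcl1 was nearest to S100a9 (0.63), Serpina3n (0.63) and S100a8 (0.62), of which S100a8 and S100a9 belong to the neutrophil list. Ccl8 had Mmp3 (0.68) and Fam114a1 (0.67), and Cx3cl1 had Cdk2ap1 (0.70), Gpc1 (0.66) and Rbm42 (0.66). The nearest named genes of Ccl11 were Slc1a3 (0.85) and Ppm1m (0.84), values over all 40 hearts that include the 5 hearts with adipocyte genes. The probes of Cxcl12 had different neighbours, Ssu2 (0.69), Slc66a1 (0.66) and Ttc27 (0.65) for the brightest, Cdk11b (0.78), Pde4dip (0.77) and Samd4 (0.75) for the second, and Srpx (0.80), Ephx1 (0.77) and Scarf2 (0.76) for the third.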

How the data were processed

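RNA of 40 hearts was hybridised to Illumina MouseRef-8 v2.0 beadchips, 1 array per animal. The deposited intensities were quantile-normalised over all arrays by the authors in BeadStudio, whose version is not given in the sources used here. They ran from 47.5 to 31454.1 units, with no further background step stated. Array medians were 79.2 to 79.5. Probes were named from the platform annotation (23978 with 1 symbol, 1719 with none, 0 with several). Here the intensities were log2-transformed, and probes above their array's median on at least 20 arrays were tested with limma 3.58.1 (lmFit, eBayes with trend, R 4.3.3), 20 arrays per pairwise comparison, with Benjamini-Hochberg adjustment over 12645 probes. Intervals are 95%. Correlations used SciPy 1.17.1 and NumPy 2.4.6, with 100000 two-sided permutations of animals within groups. All member probes are named; of each list the genes that passed, and for each member the nearest 3 probes (5 for Ccl7 and Cxcl14). The members and lists were chosen with earlier results of these data known. Batches were inferred from the first principal component of the untested probes (16.4% of their variance). The number of arrays limits the precision. Scripts were tested on simulated data. Alternatives were another background, other filters, 1 fit on all arrays, batch, cage, single animals and hearts with other tissue.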

Additional observations from a re-analysis of the deposited data

Results flagged for a closer look

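In 64 sets of 10 values (16 probes in 4 groups) the highest or lowest heart was compared with its nearest neighbour, and 5 sets had a heart set far apart from the others of its group. Chance alone gives about 1 in 20. Ccl7 reached 131.4 units in HF_LF animal 54, a heart with exocrine pancreas genes, with the next heart at 104.9. Animal 52 of HF_HF had 344.1 units of Ccl8 (next 133.3) and 221.8 units of Cxcl1 (next 147.0). Ccl11 reached 261.9 units in HF_HF animal 183 (next 167.8), a heart with high white adipocyte genes. The brightest Cxcl12 probe reached 3125.4 units in LF_HF animal 201 (next 2411.9), a heart with liver genes.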

How the results depend on the processing

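The post-weaning counts of member probes changed with the hearts used, as did those of all 12645 tested probes. In offspring of LF-fed dams the 2 became 1 within batch 1 or with cage means, both times Cxcl14, and 0 within batch 2 or without hearts with another tissue. In the same order the 344 of all probes became 63, 4, 0 and 10. In offspring of HF-fed dams the 3 became 0 within batch 2 or with cage means and 1 (Cxcl14) without the hearts rich in adipocyte genes. There the 109 of all probes became 1, 19 and 54. Averaged over the maternal diet the 4 became 0 within batch 2, and the 947 of all probes became 4. All of these settings use fewer samples or replicates, and why the counts changed was not tested. The differences of Ccl7 and the brighter Cxcl14 probe were above 0.4 on the log2 scale in each. These 2 genes were chosen on this contrast, so that is a description from which nothing is drawn. Leaving out 1 animal gave member counts of 2 to 3, 2 to 3 and 3 to 5, and 0 to 0 for each maternal comparison and the interaction. By r, the 4 correlations between members became 1 without hearts with another tissue, and the 18 with marker scores became 9 without these hearts and 6 without those rich in adipocyte genes. The settings without adipocyte-rich hearts, with the atrial score, by rank, and those of the marker scores were chosen after seeing the data. Among 632 single values under alternatives, post-weaning and maternal, a post-weaning sign change was counted only for probes past the threshold in the main fit. Sign changes of other post-weaning differences were therefore not counted. Of the maternal differences 14 changed sign, none of them past the threshold. In LF-fed offspring these were Cx3cl1 (0.0197 within batch 1), Cxcl1 (−0.0132 with batch as a term, −0.15 within batch 2), Ccl7 (0.0312 within batch 2), and Cxcl12 (−0.13 within batch 2 for its second probe, 0.0133 with the atrial score for the brightest). In HF-fed offspring these were Cx3cl1 (0.17 within batch 2), the brighter Cxcl14 probe (0.0745 within batch 2, 0.0714 with cage means, 0.0138 without hearts with another tissue, 2.2e-05 without adipocyte-rich hearts), Cxcl1 (−0.0037 within batch 1) and Ccl9 (−0.0326 within batch 2, −0.0450 without adipocyte-rich hearts). The cause was not tested. Animals of different groups share no replicate number. The 5 cages with hearts of both diets were compared within the cage. With cage as a random block the member counts were 2, 3 and 3 after weaning, beside 274, 110 and 911 of all tested probes. Ccl9 was lost in the averaged fit, and the member counts were 0 in the other comparisons. Probes near the array median carry little signal above background, so folds of Ccl2, Ccl8 and the dimmer Cxcl14 probe may be understated. The same holds for Ccl6, Cx3cl1, Cxcl1 and Ccl7. Ccl7 had medians of 108.4 units in LF_LF and 98.95 in HF_LF hearts, against an array median of 79.3.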
